A study of Ovis aries with 49 samples.

Results

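PHACTR2, GATM, ZFAT, BLCAP, WRB, TRAPPC9 and SLC22A2 are genes that have been reported as imprinted in mammals. They were grouped here because their allele counts in fetal sheep leaned only weakly to 1 parent, or to the mother in some cases and to the father in others. Every listed single nucleotide polymorphism (SNP) whose gene was 1 of these 7 was taken from the fetal allele-count lists. This gave 45 entries, an entry being 1 SNP in 1 fetus and 1 tissue, out of 39974 entries in 7164 listed genes. The 45 entries came from 29 SNPs, 13 of the 15 fetuses and 24 of the 45 libraries.

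The libraries were RNA-seq of lung, kidney and brain from 15 fetuses collected at gestational day 135. From day 30 of pregnancy, 4 ewes were overfed (140% of the recommended energy intake; 4 fetuses), 4 were restricted (60%; 4 fetuses) and 4 were controls (100%; 7 fetuses). The 12 ewes were Western white-faced sheep mated to 4 Dorset rams, so every fetus was a cross and carried no engineered allele. Control fetuses 1, 5 and 7 shared the number of 1 ewe and control fetuses 4 and 6 that of another, so their values are not independent.

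In an imprinted gene the copy from 1 parent is expressed more than the copy from the other, whichever bases the copies carry. Imprinting is usually set by DNA methylation laid down in the egg or sperm, and imprinted genes often sit in clusters, with some members imprinted only in placenta, only in brain or only in some species. RNA-seq shows it at SNPs where the fetus is heterozygous and the father is homozygous, because the father's base is then known. The paternal share below is the percentage of a SNP's reads that carry that base: 0% means that all reads are maternal, 100% that all are paternal.

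No listed entry had fewer than 20.5 reads, and none had its higher allele under 70.02%. An informative SNP with near-equal alleles is thus not listed, and a share between about 30% and 70% cannot occur for a single SNP. Read numbers can end in 0.5 because the submitters averaged 2 alignments. Positions are those of the lists, whose genome build the labels and headers do not name. Libraries differed in depth: lung had 709 to 1993 entries per library, kidney 172 to 1276 and brain 272 to 1420, and the median entry held 34.25, 31.5 and 30.5 reads in lung, kidney and brain. Of 12 kidney marker genes, 2 had entries in lung, 6 in kidney and 0 in brain, with AQP2 and UMOD among the 6. Of 12 brain markers, 2 had entries in lung, 3 in kidney and 4 in brain, with a median of 143 reads per entry in brain, against 35.3 in lung and 23.5 in kidney. Of 11 lung markers, SLC34A2 was listed in lung, none in kidney and ABCA3 in brain. Endothelial markers (CDH5, KDR, VWF, PECAM1) were listed in all 3 tissues, at 3 genes in each. A marker without an entry may be expressed with balanced alleles or have no informative SNP.

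Most entries lay close to the limit of the lists. The higher allele held 70.2% to 86.0% of the reads (median 72.9%), against a median of 76.2% over all listed genes. BLCAP lay above that median, at 79.5%, 79.7% and 84.8%. The higher allele reached 80% in 3 of the 45 entries (6.67%), against 34.7% of all entries, and 90% in 0 of the 45, against 3458 of all 39974. The maternal allele was the higher one in 36 entries and the paternal allele in 9, so the paternal side made up 20% of the entries of the 7 genes, against 43.6% over all genes. The 7 genes were chosen by these paternal shares, so the shares are given as a description throughout, without a test.

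**Figure D1:**
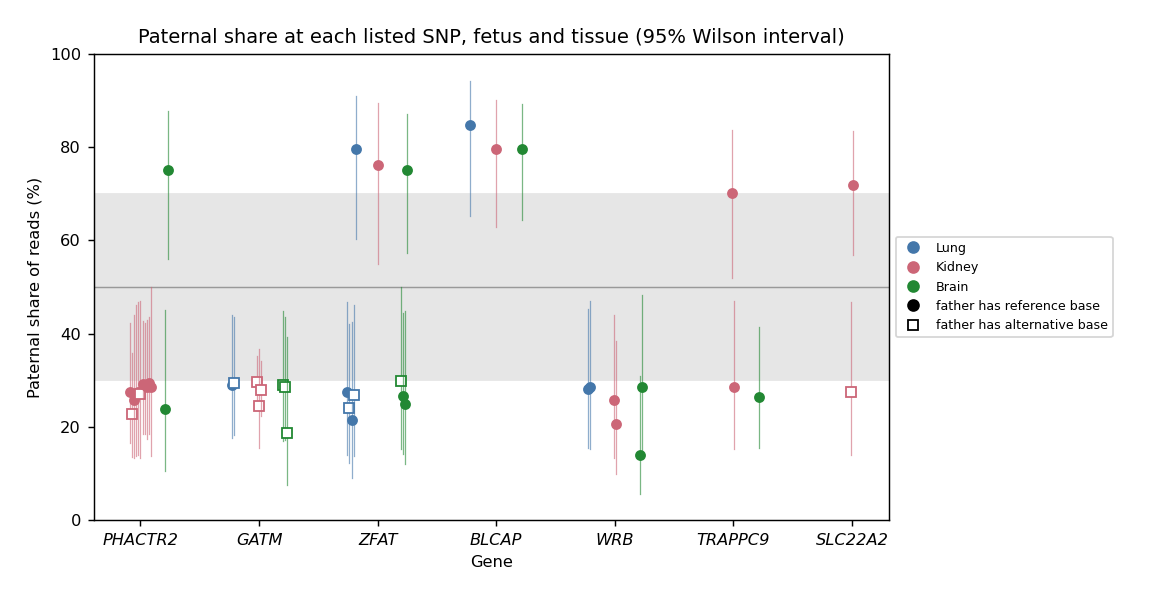
Paternal share (percent of reads) of each of the 45 entries, by gene; colours are lung, kidney and brain, squares are SNPs whose father carried the alternative base, bars are Wilson 95% intervals and the grey band is the 30% to 70% range that the lists left out. GATM and WRB lie wholly on the maternal side, BLCAP wholly on the paternal side, and PHACTR2, ZFAT, TRAPPC9 and SLC22A2 have entries on both.

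The precision of single entries was low. Reads per entry ran from 21 to 272 with a median of 29, and 25 of the 45 entries had fewer than 30 reads. The Wilson 95% interval covered 50% in 1 of the 45 (a ZFAT SNP in the brain of control fetus 6), and it reached into the unlisted 30% to 70% range in all 45. Intervals cover counting error only, and they do not account for the 70% filter, which keeps the more uneven draws of a balanced SNP. In 32 entries the paternal base was the reference base and in 13 the alternative, while the higher allele was the reference base in 22 and the alternative in 23. Of the 29 SNPs, 23 were A/G or C/T exchanges.

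Of the SNPs that were informative (fetus heterozygous, father homozygous) in these genes, few were listed. Counting each informative SNP once per fetus and tissue, 45 of 1638 were listed for the 7 genes, or 2.75% (Clopper-Pearson 95% interval 2.01 to 3.66%). Over all genes 39974 of 1416525 were listed, or 2.82%. For 46 other reported imprinted genes with an informative SNP the figure was 404 of 3534, or 11.4%, and 7.21% without PEG3, GRB10 and IGF2R. PEG3, a paternally expressed zinc finger gene, stood at 72.6%. Counted per gene, fetus and tissue with any listed SNP, the 7 genes stood at 14.1%, against 8.16% over all genes. An unlisted SNP may have had balanced alleles or too few reads, and the lists do not tell these apart. The 7 genes had to be listed at least once to be chosen, which the figure over all genes does not require.

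**Figure D2:**
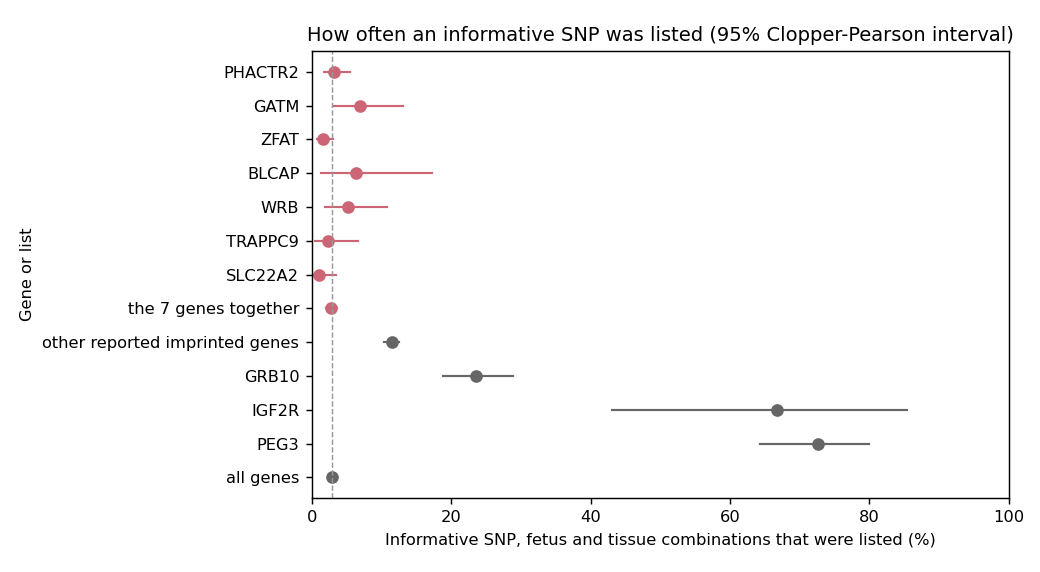
Percent of informative SNP, fetus and tissue combinations that were listed, for each of the 7 genes, for the 7 together and for the other reported imprinted genes, with Clopper-Pearson 95% intervals; the dashed line is the value over all genes (2.82%). The 7 genes together (2.75%) lie at that line, below the other reported imprinted genes (11.4%).

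GATM encodes glycine amidinotransferase, which carries out the first step of creatine synthesis and is abundant in kidney. It had 8 entries at 4 SNPs on chromosome 7, from position 62052750 to 62058196 in 5 fetuses that covered all 3 diets, and all 8 were on the maternal side. In lung the paternal share was 29.1% in control fetus 3 and 29.3% in control fetus 6. In kidney it was 24.6% in overfed fetus 3, 27.9% in restricted fetus 1 and 29.6% in control fetus 6. In brain it was 18.6% in overfed fetus 3 and 28.8% over 2 SNPs in control fetus 2. The 3 tissues overlapped, with means of 29.2% ± 0.197 (SD, n = 2) in lung, 27.4% ± 2.55 (n = 3) in kidney and 23.7% ± 7.17 (n = 2) in brain. The kidney entries were the deepest of the 45: maternal against paternal reads were 191.5 against 80.5 in control fetus 6, 161.5 against 62.5 in restricted fetus 1 and 46 against 15 in overfed fetus 3, all at position 62058196. Their Wilson intervals were 24.5 to 35.3%, 22.4 to 34.1% and 15.5 to 36.7%. The father carried the alternative base in 7 of the 8 GATM entries and the reference base in 1, and the reference base was the higher one in 7. In those 7 parent and base cannot be told apart. In the 1 entry with the reference base from the father, at 62052750 in the lung of control fetus 3, the alternative and maternal base was the higher one. In overfed fetus 3 the kidney (24.6%) and brain (18.6%) entries were both at 62058196.

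SLC22A2 encodes OCT2, an organic cation transporter of the kidney tubule, and lies beside IGF2R in mammals. Kidney was the only one of the 3 tissues with entries of the gene. At position 82962879 of chromosome 8, restricted fetus 1 had 18.5 maternal and 7 paternal reads, a paternal share of 27.5%. At position 82995946, overfed fetus 4 had 11.5 maternal and 29.5 paternal reads, a share of 72.0%. The 2 kidneys thus favoured opposite parents, at SNPs 33067 bases apart. The father carried the alternative base at 82962879 and the reference base at 82995946. The reference base was the higher one in both entries, so parent and base cannot be told apart. The gene was listed in 2 of 207 informative combinations (0.966%), the lowest of the 7 genes.

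WRB, also called GET1, forms part of the receptor that inserts tail-anchored proteins into the membrane of the endoplasmic reticulum. Its 6 entries came from 3 SNPs within 381 bases on chromosome 1 (positions 257406938 to 257407319), and all 6 were on the maternal side. In lung the paternal share was 28.6% in control fetus 2 and 28.1% in control fetus 3. In kidney it was 20.7% in control fetus 3 and 25.9% in control fetus 4. In brain it was 28.6% in restricted fetus 4 and 14.04% in control fetus 7, the lowest of the 45 entries, from 24.5 maternal and 4 paternal reads. The tissues overlapped, at 28.3% ± 0.316 in lung, 23.3% ± 3.66 in kidney and 21.3% ± 10.3 in brain (SD, n = 2 each). The father carried the reference base in all 6 entries, so the maternal allele was always the alternative base. Here too parent and base cannot be told apart.

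TRAPPC9 encodes a subunit of the TRAPPII complex, which acts in transport between membranes. In mouse the paternally expressed noncoding gene Peg13 lies in one of its introns, and Trappc9 favours the maternal copy in mouse brain. All 3 entries were at position 16087482 of chromosome 9, an A/G SNP whose fathers carried A. In kidney overfed fetus 4 had a paternal share of 28.6% (20 maternal and 8 paternal reads), against 70.2% in control fetus 6 (8.5 and 20). In the brain of control fetus 1 it was 26.5% (30.5 and 11). The 2 kidneys, from fetuses of 1 ram, favoured opposite parents at the same base. The SNP was informative in 12 fetuses, and 3 of 36 fetus and tissue combinations were listed at it. It was the only 1 of the 29 SNPs heterozygous in at least 10 of the 15 fetuses. Reads from a near-identical copy could give such a SNP, so its values are uncertain, and this was not tested.

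PHACTR2, a phosphatase and actin regulator, had 13 entries, the most of the 7 genes. They came from 11 SNPs on chromosome 8 between 68116918 and 68158818, and 10 of the 11 shared 1 annotated feature of the deposited lists. In kidney the gene had 11 entries in 5 fetuses, all on the maternal side. The summed paternal share was 27.8% in overfed fetus 1 and 28.7% in overfed fetus 4. It was 25.0% in restricted fetus 1, and 28.6% and 25.9% in control fetuses 6 and 7. The mean was 27.2% ± 1.67 (SD, n = 5) and the diets overlapped. The lists hold no single-SNP share between about 30% and 70%, which bounds this spread, and the Wilson interval of each kidney was wider than the spread between kidneys. The father carried the alternative base at 2 of these SNPs, 68154128 in restricted fetus 1 (22.9%) and 68157313 in overfed fetus 1 (27.1%). In those 2 entries the reference base was the higher one. At each of these 2 SNPs every informative father carried the alternative base, so parent and base cannot be told apart at either. Neighbouring SNPs can share reads: 68157515 and 68157518 are 3 bases apart and gave 29.1% and 29.0% in overfed fetus 4.

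In brain PHACTR2 had 1 SNP, 68156910, in 2 fetuses. Overfed fetus 4 had 6.5 maternal and 19.5 paternal reads (75.0%), against 16 and 5 reads (23.8%) in control fetus 6. Both fetuses were sired by the same ram and both were on the maternal side in kidney at other SNPs of the gene. PHACTR2 was listed in 0 of 135 informative combinations in lung, 11 of 135 in kidney (8.15%, interval 4.14 to 14.1%) and 2 of 135 in brain (1.48%). A count of 0 in lung allows a listed share of up to 2.70% (Clopper-Pearson).

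ZFAT encodes a transcription factor with zinc fingers and an AT-hook. Its 10 entries came from 7 SNPs within 1209 bases on chromosome 9 (20169892 to 20171101), all in 1 annotated feature, and 7 entries were maternal and 3 paternal. The side changed along the feature: the 5 SNPs up to 20170478 gave 7 entries, all maternal, at 21.4% to 29.8%. The 2 SNPs at 20170803 and 20171101 gave 3 entries, all paternal, at 75.0% to 79.6%. In the lung of overfed fetus 1 both sides occurred in 1 library, with paternal shares of 24.1% at 20170151 and 26.9% at 20170419, against 79.6% at 20170803. The father carried the alternative base at 20170151 and 20170419 and the reference base at 20170803. The reference base was thus the higher one at each of these SNPs, and parent and base cannot be told apart there. Fathers carried the reference base both at 20170478, where entries were maternal, and at 20170803, where they were paternal. In overfed fetus 4 the shares were 27.5% in lung, 76.2% in kidney and 25.0% in brain, each at another SNP.

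**Figure D3:**
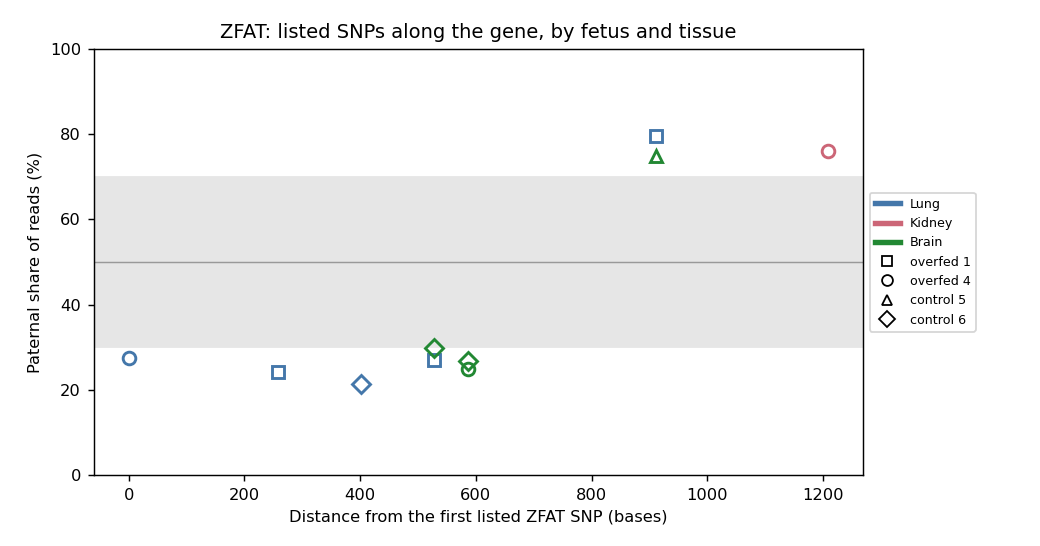
Paternal share (percent of reads) of each ZFAT entry against the distance in bases from the first listed ZFAT SNP; colours are lung, kidney and brain, and marker shapes give the fetus. The 7 entries at the first 5 SNPs lie below 30% and the 3 entries at the last 2 SNPs lie at 75.0% or above.

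BLCAP encodes a small protein linked to apoptosis and carries the paternally expressed gene Nnat in its intron in mouse and human. It was the only 1 of the 7 with every entry on the paternal side, but all 3 entries came from 1 SNP (chromosome 13, 65915876, A/G) in overfed fetus 2, the 1 fetus in which that SNP was informative. Maternal against paternal reads were 3.5 against 19.5 in lung (84.8%), 6.5 against 25.5 in kidney (79.7%) and 8 against 31 in brain (79.5%). The Wilson intervals were 65.3 to 94.3%, 62.96 to 90.1% and 64.5 to 89.2%, and all 3 overlapped. The father carried the reference base, which was the higher one in all 3 entries, so parent and base cannot be told apart. BLCAP had 10 informative SNPs in 11 fetuses, and its other 9 SNPs were not listed in any tissue. NNAT was informative in 4 fetuses and was not listed.

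How far entries of 1 gene repeated each other was set beside all genes. Where a gene had several SNPs in 1 fetus and tissue, 1 of 7 cases held both sides for the 7 genes (ZFAT in the lung of overfed fetus 1), against 15.7% over all genes. Where 1 SNP was listed in several fetuses, 2 of 9 cases held both sides (PHACTR2 68156910 and the TRAPPC9 SNP), against 17.96%. Where 1 gene was listed in several tissues of 1 fetus, 2 of 8 held both sides (PHACTR2 and ZFAT in overfed fetus 4), against 17.3%. These are counts over few cases and were not tested. The same SNP was listed in more than 1 tissue of a fetus for 2 of 42 pairs of SNP and fetus (4.76%), against 20.2% over all genes. Those 2 were GATM in overfed fetus 3 and BLCAP in overfed fetus 2, and neither changed side.

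Over gene and tissue cases with a value in at least 2 fetuses, 8 of 12 had every fetus on the maternal side, 0 had every fetus on the paternal side and 4 were split. The split cases were PHACTR2 in brain, ZFAT in brain, TRAPPC9 in kidney and SLC22A2 in kidney. A further 5 cases rested on 1 fetus. These counts use shares summed over SNPs. ZFAT in lung counted as maternal, though overfed fetus 1 had 42.1% there (Wilson interval 31.9 to 53.1%) with SNPs on both sides. Without control fetus 3 the cases with every fetus maternal were 5 of 9. No matching figure over all genes is given, and the genes were chosen on these shares.

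Between tissues, ZFAT alone had values in at least 3 fetuses of 2 tissues, lung and brain. Its summed paternal share was 21.4%, 27.5% and 42.1% in lung, against 25.0%, 28.0% and 75.0% in brain, and the tissues overlapped. Since the genes were chosen on their shares, no test of this difference is given. Over all genes 77 of 512 passed for share between lung and brain (15%), and nothing is read from that for ZFAT.

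Read depth at the listed SNPs gave a separate measure, which the choice of genes did not use. It is the mean number of reads per listed SNP of a gene in a library, and it can be no lower than 20.5. GATM stood out, with 43 and 46 reads per SNP in lung, 61, 224 and 272 in kidney, and 21.5 and 40 in brain. Every kidney value lay above every lung and brain value. The kidney entries were all at 62058196 and the lung entries at 62052750 and 62058108, so lung and kidney shared no SNP. Kidney and brain shared 62058196 in overfed fetus 3, with 61 reads in kidney, against 21.5 in brain. With the requirement lowered to 2 fetuses per tissue, the scaled log2 difference of lung from kidney was -2.46 (SE 0.53, limma, adjusted p = 0.0204), where 152 of 1204 genes passed (12.6%). The adjusted p was 0.0025 without overfed fetus 3 and 0.0469 without restricted fetus 1, and leaving out either fetus with a lung value left too few values. The difference of kidney from brain was 1.92 (SE 0.53, adjusted p = 0.0341), where 170 of 810 genes passed (21%). It did not pass without control fetus 6 (adjusted p = 0.0987) or without restricted fetus 1 (0.0771), and leaving out either fetus with a brain value left too few values. These fits counted libraries of 1 fetus as independent. At the stricter requirement of 3 fetuses GATM was not tested. In whole tissue a difference in reads cannot be told apart between more cells that express the gene and more RNA per cell, and the kidney markers AQP2 and UMOD were listed in kidney and in neither lung nor brain; their part in the result was not tested.

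**Figure D4:**
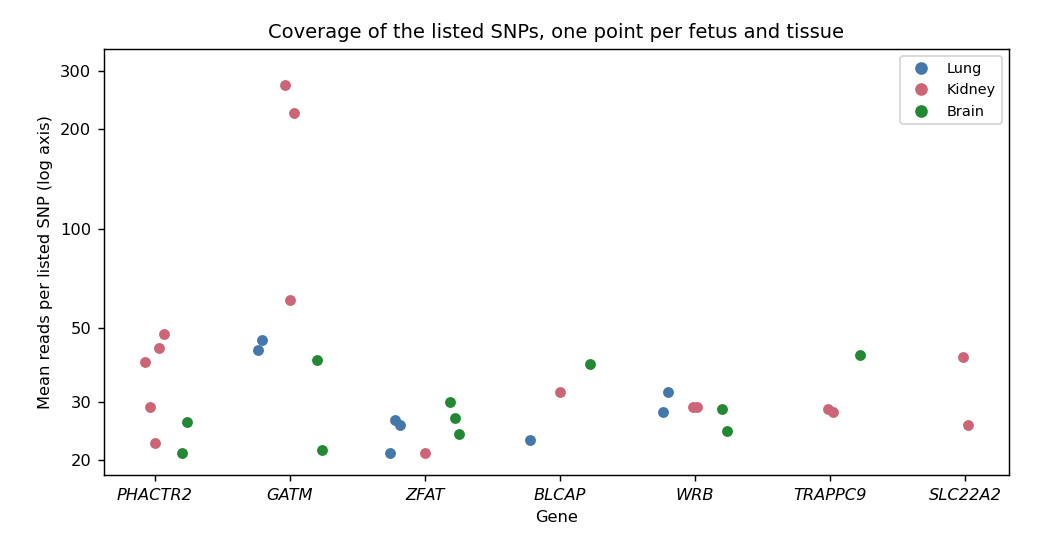
Reads per listed SNP (log axis) of each gene in each library with an entry, coloured by lung, kidney and brain. The 3 GATM kidney values, 61 to 272, lie above all lung and brain values of the gene, while every value of the other 6 genes lies between 21 and 48.

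The other 6 genes had 21 to 48 reads per listed SNP. ZFAT averaged 24.3 ± 2.93 reads per SNP in lung (SD, n = 3), against 26.9 ± 3.00 in brain (n = 3) and 21 in the 1 kidney. Its scaled lung minus brain difference was -0.75 log2 (SE 0.27, 95% interval -1.37 to -0.13; limma, adjusted p = 0.0547), where 210 of 512 genes passed (41%). With fetus as a replicate block it was -0.74 with an adjusted p of 0.0400, where 231 of 512 genes passed (45.1%). Without scaling it was -0.14 with an adjusted p of 0.793. ZFAT had 3 values per tissue, the fewest allowed, so no fetus with a ZFAT value could be left out at this requirement. With 2 fetuses allowed the ZFAT difference had an adjusted p of 0.0702 (limma). Without control fetus 6 it was then -0.68 (adjusted p = 0.226). PHACTR2 had 22.5 to 48 reads per SNP in kidney (36.5 ± 10.5, n = 5), against 21 and 26 in brain. With 2 fetuses allowed, its kidney minus brain difference was 0.87 (adjusted p = 0.0626), and 0.91 with fetus as a replicate block (adjusted p = 0.0371), where 196 of 810 genes passed (24.2%). WRB ranged from 24.5 to 32 reads and had adjusted p-values of 0.627 to 0.813 between its tissues.

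For maternal diet, PHACTR2 in kidney was the one case with values from at least 2 ewes in each of 2 diets. Littermates were averaged first. Kidney shares were 27.8% and 28.7% in overfed fetuses, against 25.9% and 28.6% in control fetuses, and the groups overlapped. All 4 values lie under the 30% bound of the lists, and no test of them is given. Over all genes 0 of 243 passed for share between these diets by limma (0%), with 16 at an unadjusted p under 0.05. Reads per listed SNP were 22.5 and 43.5 in overfed fetuses, against 29 and 39.7 in control fetuses. After scaling the log2 values were 5.57 and 5.65 in overfed fetuses, against 4.74 and 5.51 in control fetuses. The scaled difference was 0.48 log2 (SE 0.34, 95% interval -0.36 to 1.33; limma, adjusted p = 0.958), and -0.11 without scaling. Here 0 of 243 genes passed (0%), with 18 at an unadjusted p under 0.05.

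Listing by diet was a description over few entries. In the 7 genes 19 of 483 informative combinations were listed in overfed fetuses (3.93%), 5 of 339 in restricted fetuses (1.47%) and 21 of 816 in controls (2.57%), against 2.97%, 2.67% and 2.82% over all genes. Control fetus 6 held 10 entries and overfed fetus 4 held 9, so 19 of the 45 came from 2 fetuses. Both were sired by the same ram, whose 7 fetuses held 29 of the 45 entries (64.4%) and 315 of the 546 informative pairs of SNP and fetus (57.7%). Restricted fetuses 2 and 3 had no entry, of 13 and 23 informative pairs, and diet, fetus and ram cannot be told apart in these counts. By tissue, 10 entries were in lung (1.83% of informative combinations), 22 in kidney (4.03%) and 13 in brain (2.38%), against 3.65%, 2.62% and 2.20% over all genes.

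Genes beside the 7, known from imprinted domains of other mammals, were looked up in the same libraries. Of 20 such gene names, 13 were informative and 5 were listed. The 20 include GET1, the other name of WRB, which had no informative SNP under that name. IGF2R, a receptor that clears IGF2 and is expressed from the maternal copy in sheep, had 14 entries, all maternal, with paternal shares of 3.54% to 18.6%. Its last listed SNP lies 90058 bases from the first SLC22A2 SNP. In the kidney of overfed fetus 4 IGF2R had paternal shares of 10.1% and 7.57% at its 2 SNPs, while SLC22A2 had 72.0% in the same library. The father carried the reference base in all of these entries, and for SLC22A2 parent and base cannot be told apart. PLAGL1, a zinc finger gene expressed from the paternal copy in human and mouse, lies 72934 bases beyond the last PHACTR2 SNP. In control fetus 6 it had a paternal share of 100% in lung (0 maternal and 21 paternal reads) and 85.7% in kidney (4 and 24), while PHACTR2 had 28.6% in that kidney. Each pair of neighbours favoured opposite parents in 1 library. In the kidney of control fetus 6 the father carried the reference base at the PLAGL1 SNP and at the 3 PHACTR2 SNPs. Parent and base cannot be told apart for that pair either.

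Near WRB, SH3BGR had 8 entries, 7 maternal and 1 paternal, with shares of 14.3% to 78.7%, and BRWD1 had 1 entry at 70.6% in the lung of overfed fetus 1. Near TRAPPC9, DENND3 had 2 entries at 78.7% and 70.3% in the lung of overfed fetus 2. KCNK9, CHRAC1 and AGO2 were informative in 1, 7 and 8 fetuses and were not listed. Of the domain neighbours only IGF2R reached a tissue test, in lung against kidney, and it did not pass for share (-0.71 on the logit scale, SE 0.30; limma, adjusted p = 0.756). Among 78 other reported imprinted genes, 8 tests of share could be made between tissues, of which 0 passed and 2 had an unadjusted p under 0.05. In read depth PEG3 was higher in kidney than brain by 2.07 log2 (limma, adjusted p = 3.003e-09) and COPG2 was lower by -1.46 (adjusted p = 3.156e-05), of 2 tested, while 152 of 465 genes passed in all (32.7%). In lung against kidney 2 of 5 passed, against 148 of 738 genes in all (20.1%): IGF1R at -0.47 (adjusted p = 0.0209) and PEG3 at -1.94 (adjusted p = 5.164e-10).

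Genes with the most similar paternal shares were ranked by the root mean square difference over at least 6 shared libraries. For GATM these were PRRC2A (6.47 percentage points over 6 libraries) and CLK1 (6.70 over 7), of 36 candidates. For WRB they were AKTIP (6.01 over 6) and PRRC2A (6.20 over 6), of 44. For PHACTR2 they were COPA (13.6 over 6) and LTA4H (18.7), of 68, and for ZFAT MCAT (21.4 over 6) and RASA1 (22.7 over 6), of 141. Since listed shares lie below 30% or above 70%, a small distance mostly means that a gene was on the same side in the same libraries. BLCAP, TRAPPC9 and SLC22A2 had values in fewer than 6 libraries and were not ranked.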

How the data were processed

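Allele counts from RNA-seq of 45 libraries (15 fetuses, 3 tissues) were used. The deposited fetal lists hold estimated counts per allele, in steps of 0.5, which the authors averaged over alignments to a reference and an alternative genome, per the labels. Tools named in the submitters' processing notes are Trimmomatic 0.33, HISAT2 2.0.5, Picard and SAMtools; no genome build is named there. Deposited ram lists gave the fathers' genotypes and thereby the informative SNPs. Gene names and feature IDs are those of the lists, and no sequence or exon annotation was used.

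Paternal shares were computed per entry and from summed reads per gene and library, with Wilson intervals per entry. Tests used limma 3.58.1 in R 4.3.3, on the logit of the share (0.5 reads added to each allele) and on log2 of reads per listed SNP plus 1, scaled by the median log2 ratio over 153 genes. Share tests ran over all genes, and none is given for the 7, which were chosen on their shares. Tissues were compared in 1 fit over 45 libraries (at least 3 fetuses in both tissues) and diets within a tissue with littermates averaged (at least 2 ewes in both diets). P-values were Benjamini-Hochberg adjusted over all genes tested in a comparison, with a threshold of 0.05. The fits were also run on simulated data with known changes. The part of those changes that was recovered is not given, so nothing is read from that run about the tests of these lists. Samples of 1 replicate number and diet are tissues of 1 fetus, per the labels, so number pairs tissues; share deviations of 1 fetus correlated at 0.246 to 0.616 between lung and kidney, -0.06 to 0.46 between kidney and brain and -0.005 to 0.484 between lung and brain.

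The 7 genes and the gene lists were chosen with earlier results of these data known. All 7 genes are named; a gene of the lists is named when it passed a test or is a domain neighbour with a listed SNP, and for each of the 7 with at least 6 libraries the 2 genes of most similar share are named. Alternatives covered read minimum, SNPs heterozygous in many fetuses, number of values required, pseudocounts, scaling, joining of SNPs, blocks, diet as a covariate and leaving out each fetus. P-values measure the spread between fetuses of few ewes and rams.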

Additional observations from a re-analysis of the deposited data

Results flagged for a closer look

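In 4 cases all gene-level values of 1 group (reads summed over SNPs) lay on the opposite side of balance from all values of another, and none of these differences was tested. PHACTR2 in brain had a paternal share of 75.0% in the overfed fetus with a value, against 23.81% in the control fetus with one (n = 1 each). ZFAT had a mean share of 30.34% in lung (n = 3), against 76.19% in kidney (n = 1), at an SNP not listed in lung; 1 lung entry, in overfed fetus 1, was itself paternal at 79.6%. TRAPPC9 in kidney had 28.57% in 1 overfed fetus, against 70.18% in 1 control fetus, at the same SNP. SLC22A2 in kidney had 71.95% in 1 overfed fetus, against 27.45% in 1 restricted fetus, at different SNPs. The reference base was the higher one in both of these SLC22A2 entries. Overfed fetus 4 supplied the overfed value in all 3 of the diet cases and the kidney value of ZFAT. No paternal share of PHACTR2 in kidney, the only group of more than 3 fetuses, stood far from the others. Its scaled log2 read depth was 4.74 in control fetus 7, against 5.51 to 5.65 in the other kidneys with a value.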

How the results depend on the processing

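At the main settings none of the 7 genes passed a test, so no passed difference of theirs could reverse direction. The overfed minus control read depth of PHACTR2, which did not pass, was 0.48, and -0.11 without scaling. Mean shares over 2 or 3 fetuses rested on single values: without 1 fetus PHACTR2 in brain was 23.81 or 75.0% in place of 49.4%, SLC22A2 in kidney 27.45 or 71.95% in place of 49.7%, TRAPPC9 in kidney 28.57 or 70.18% in place of 49.37%, and ZFAT in brain 26.52 to 51.52% in place of 42.68%. In the tissue comparison of read depth, ZFAT was the 1 gene of the 7 with enough values and 0 passed; 1 did without SNPs heterozygous in 10 or more fetuses, 1 with fetus as a replicate block, 2 with 1 value fewer required, 3 with both of the last (chosen after seeing the data), and 0 to 1 without each of the 11 fetuses that hold no ZFAT value, or, with 1 value fewer required, each of the 5 with a GATM value. ZFAT had adjusted p-values of 0.0345 to 0.793 over the alternatives, the highest without scaling. It passed without control fetus 7, restricted fetus 1 or restricted fetus 2 (0.0482, 0.0496 and 0.0457), which hold no ZFAT value. With 1 value fewer required, ZFAT did not pass without control fetus 6, which holds ZFAT values (adjusted p = 0.226). Of all genes, 77 of 512 passed for lung minus brain share, 12 of 291 without SNPs heterozygous in 10 or more fetuses and 60 to 79 without each fetus. For lung minus brain read depth 210 of 512 passed, 129 of 259 at 30 reads or more, 114 of 512 without scaling and 174 to 213 without each fetus. Of these 77 were higher and 133 lower in lung, 29 and 201 under scaling by total reads, 95 and 19 without scaling, and 23 and 119 without widely heterozygous SNPs; the median over all genes was -0.16, -0.58, 0.29 and -0.47 log2 in that order. For overfed minus control kidney, 1 gene passed for share with 1 value fewer required and 0 to 1 for read depth without each fetus, the 1 without restricted fetus 3. The replicate number as a replicate block across diets, which name different fetuses, left the read depth of PHACTR2 at 0.48 (adjusted p = 0.911). Neither replicate block changed a call of the 7 genes other than those given. Over all genes, 88 of 512 passed for lung minus brain share with fetus as a replicate block. Cases with every fetus maternal were 8 of 12, 3 of 4 at 30 reads or more and 5 to 9 without each fetus, with 5 of 9 without control fetus 3. Listing was 2.75% and 2.35 to 2.96% without each fetus; counted as fetuses with any listed SNP it was 14.1%, against 8.16% over all genes. At 30 reads or more the read depth tests of ZFAT and PHACTR2 had too few values to be made. Causes of these changes were not tested. Depth limits single entries, since 25 of the 45 had under 30 reads.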
